A study of Mus musculus with 4 samples.

Results

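Interferon-stimulated genes are described here in mouse liver with and without a working Pnpla7 gene. The 35 genes are those whose name in the array files equals a name on a fixed list, out of 30085 names on the array, and they fall into 27 type I antiviral genes and 8 genes of the interferon-gamma and antigen-processing response. Each of 4 groups of C57BL/6N mice gave 1 one-colour array of RNA pooled from 5 livers: wild type (WT) at 3 weeks, Pnpla7-/- (KO) at 3 weeks, WT at 6 weeks and KO at 6 weeks. No treatment is given for any group, and how the allele was made and which part of the gene it removes are not given in the sources used here. PNPLA7 is a lysophospholipase, and by its title the series concerns phosphatidylcholine catabolism as a source of choline and methyl groups. With 1 array per group, no difference within an age or a genotype has a replicate check or a p-value. Each group also had its own position on a single slide, and the position cannot be told apart from the group.

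Type I interferons are released by cells that detect foreign nucleic acid and act through a shared receptor on a complex that holds Stat2 and Irf9 and binds an interferon-stimulated response element (ISRE) beside antiviral genes. Interferon-gamma, made mainly by T and NK cells, acts through another element, the gamma-activated site (GAS), and induces Irf1, chemokines, guanylate-binding proteins and the machinery that cuts and loads peptides for MHC class I. Several genes answer to both, Cxcl10 among them, so the division into classes is a convention. In liver these genes are expressed by hepatocytes and by Kupffer cells, the resident macrophages, as well as by endothelial and other immune cells.

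The Pnpla7 probe, whose place relative to the deletion is not known, read 7.54 in WT and 6.70 in KO at 3 weeks and 9.65 and 4.42 at 6 weeks, so the directions below rest on the labels. Here and below a signal is the processed intensity divided by the array's 75th percentile. All 9 hepatocyte markers found on the array were well above background throughout, and the median KO/WT log2 ratio was -0.04 at 3 weeks and 0.145 at 6 weeks. All 14 skeletal muscle markers were at least 2-fold higher in KO at both ages, and their summed signal was 0.498 and 1.01 in WT at 3 and 6 weeks against 67.0 and 43.4 in KO. The part of this muscle signal in the results below was not tested. Between spots of one probe, the log2 ratio had a median SD of 0.097 at 3 weeks and 0.126 at 6 weeks over 292 probes with 10 spots each, which leaves out differences between animals and pools.

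Of the 35 genes, 34 passed the flag for being well above background on every array. The exception was Oas1g, a member of the oligoadenylate synthetase cluster, which was below that limit on every array for both of its probes and enters no ratio. Promoters were found in the RefSeq table (build GRCm38.p6) for 27 of the 35 genes, as windows from 250 bases before to 50 bases after the start site. An ISRE core, searched on both strands as GAAA, any 2 bases and GAAA again,, was present in 12 of 19 type I antiviral genes and in 3 of 8 interferon-gamma and antigen-processing genes, against 3.99% of all genes with a promoter in the table. A GAS, searched as TTCNNNGAA on both strands, was present in 4 of 19 and 2 of 8, against 9.55% of all genes. The windows below are shown because the results turn on their genes: the first 5 belong to genes that were at least 2-fold lower in KO at 6 weeks, and the last 3 to genes that were not. Both sets hold windows with and without an ISRE core. Capitals mark matches to either element, and matches can overlap, as in Isg15, where 3 ISRE cores share bases, and in Bst2, where a GAS runs into 2 ISRE cores.
Isg15 (chr4:156200769-156201068, minus strand): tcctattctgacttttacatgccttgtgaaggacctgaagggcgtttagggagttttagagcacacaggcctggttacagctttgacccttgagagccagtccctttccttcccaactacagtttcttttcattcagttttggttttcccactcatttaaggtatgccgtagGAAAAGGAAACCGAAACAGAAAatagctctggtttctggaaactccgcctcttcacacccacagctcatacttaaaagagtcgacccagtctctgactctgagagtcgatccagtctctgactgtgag
Bst2 (chr8:71537423-71537722, minus strand): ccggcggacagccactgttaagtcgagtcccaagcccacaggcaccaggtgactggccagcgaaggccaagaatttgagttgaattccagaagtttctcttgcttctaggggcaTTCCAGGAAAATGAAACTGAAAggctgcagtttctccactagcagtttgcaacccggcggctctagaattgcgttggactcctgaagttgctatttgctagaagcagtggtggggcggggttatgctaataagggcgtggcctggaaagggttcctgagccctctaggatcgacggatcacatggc
Oas1a (chr5:120907476-120907775, minus strand): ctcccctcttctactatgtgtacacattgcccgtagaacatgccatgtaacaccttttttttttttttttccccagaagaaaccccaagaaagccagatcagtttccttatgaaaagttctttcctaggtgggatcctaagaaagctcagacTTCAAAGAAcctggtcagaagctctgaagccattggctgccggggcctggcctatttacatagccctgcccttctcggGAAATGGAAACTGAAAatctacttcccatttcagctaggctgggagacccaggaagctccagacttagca
Cxcl10 (chr5:92348840-92349139, minus strand): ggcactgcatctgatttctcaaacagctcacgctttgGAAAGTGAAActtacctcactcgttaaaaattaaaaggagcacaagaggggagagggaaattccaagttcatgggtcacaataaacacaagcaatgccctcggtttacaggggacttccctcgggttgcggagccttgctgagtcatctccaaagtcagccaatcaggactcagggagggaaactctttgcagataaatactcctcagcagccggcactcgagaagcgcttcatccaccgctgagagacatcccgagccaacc
Ifi44 (chr3:151749861-151750160, minus strand): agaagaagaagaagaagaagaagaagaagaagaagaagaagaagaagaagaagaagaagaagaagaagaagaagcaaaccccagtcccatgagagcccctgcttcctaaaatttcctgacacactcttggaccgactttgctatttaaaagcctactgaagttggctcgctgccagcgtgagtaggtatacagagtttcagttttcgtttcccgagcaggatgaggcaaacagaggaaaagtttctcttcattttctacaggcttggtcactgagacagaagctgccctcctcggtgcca
Gbp2 (chr3:142620413-142620712, plus strand): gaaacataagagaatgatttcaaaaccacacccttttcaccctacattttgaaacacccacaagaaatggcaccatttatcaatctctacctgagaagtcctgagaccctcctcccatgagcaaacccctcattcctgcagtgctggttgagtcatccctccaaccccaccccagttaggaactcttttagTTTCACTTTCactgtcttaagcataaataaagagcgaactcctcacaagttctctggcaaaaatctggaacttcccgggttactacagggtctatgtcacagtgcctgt
Irf1 (chr11:53769764-53770063, plus strand): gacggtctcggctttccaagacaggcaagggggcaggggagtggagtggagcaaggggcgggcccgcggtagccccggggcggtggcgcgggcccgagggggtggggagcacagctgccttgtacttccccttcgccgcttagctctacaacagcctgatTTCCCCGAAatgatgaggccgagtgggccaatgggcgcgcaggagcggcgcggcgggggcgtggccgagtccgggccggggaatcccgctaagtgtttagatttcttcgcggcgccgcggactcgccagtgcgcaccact
Tap1 (chr17:34187306-34187605, plus strand): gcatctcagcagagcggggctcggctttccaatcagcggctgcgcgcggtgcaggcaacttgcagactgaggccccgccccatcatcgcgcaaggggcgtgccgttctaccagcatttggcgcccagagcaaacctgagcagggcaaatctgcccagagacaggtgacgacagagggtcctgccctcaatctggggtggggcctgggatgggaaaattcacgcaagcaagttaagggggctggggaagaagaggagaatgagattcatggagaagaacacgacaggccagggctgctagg
The Isg15 cores lie 66 to 78 bases before the start site and those of Oas1a 14 and 20 bases before it, with a GAS at 98 bases, while the core of Cxcl10 lies farther out, at 213 bases. Ifi44, the type I gene with the lowest ratio at 6 weeks, holds neither element, and nor does Cxcl9, while Gbp2, which was not lower, holds an ISRE core 59 bases before its start site. Among type I genes with a promoter in the table, the 11 measured genes with an ISRE core had a median KO/WT log2 ratio of -0.69 at 6 weeks and the 7 without one had -0.96. Irf1 holds a GAS, 90 bases before the start site, and no ISRE core. Tap1 holds neither element in this window, which it shares over 275 bases with Psmb9, transcribed in the opposite direction from a start site 226 bases away. A match describes the letters in the window and is not evidence of binding, and a window without one says nothing about the factor.

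At 6 weeks all 26 measured type I antiviral genes had a lower signal in KO than in WT, while at 3 weeks they were close to even. Their median log2 ratio of KO over WT was -0.79 at 6 weeks, with a range from -1.61 to -0.21, and -0.06 at 3 weeks, with a range from -0.35 to 0.60. The median over all genes tested was 0.05 at 6 weeks and 0.00 at 3 weeks, and 44.3% of all genes tested were below 0 at 6 weeks. At 6 weeks 9 of the 34 measured members were at least 2-fold lower, where 4.54% of all genes tested were, and 3.04% of those that, like the members, were well above background on every array. No member was at least 2-fold higher, where 6.49% and 3.7% of these genes were. At 3 weeks none was at least 2-fold lower or higher, where 3.07% and 2.86% of all genes were, and 0.953% and 1.23% of those well above background throughout. The 9 were Ifi44, Oas1a, Oas2, Dhx58, Rsad2, Isg15 and Bst2 of the type I class and the chemokines Cxcl9 and Cxcl10. At 1.5-fold, 19 members were lower at 6 weeks, where 10.4% of all genes were, and 1, Psmb9, was higher, where 12.4% were. At 3 weeks 1 member, Usp18, was higher by that threshold, where 5.04% of all genes were, and none was lower, where 5.49% were.

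**Figure D1:**
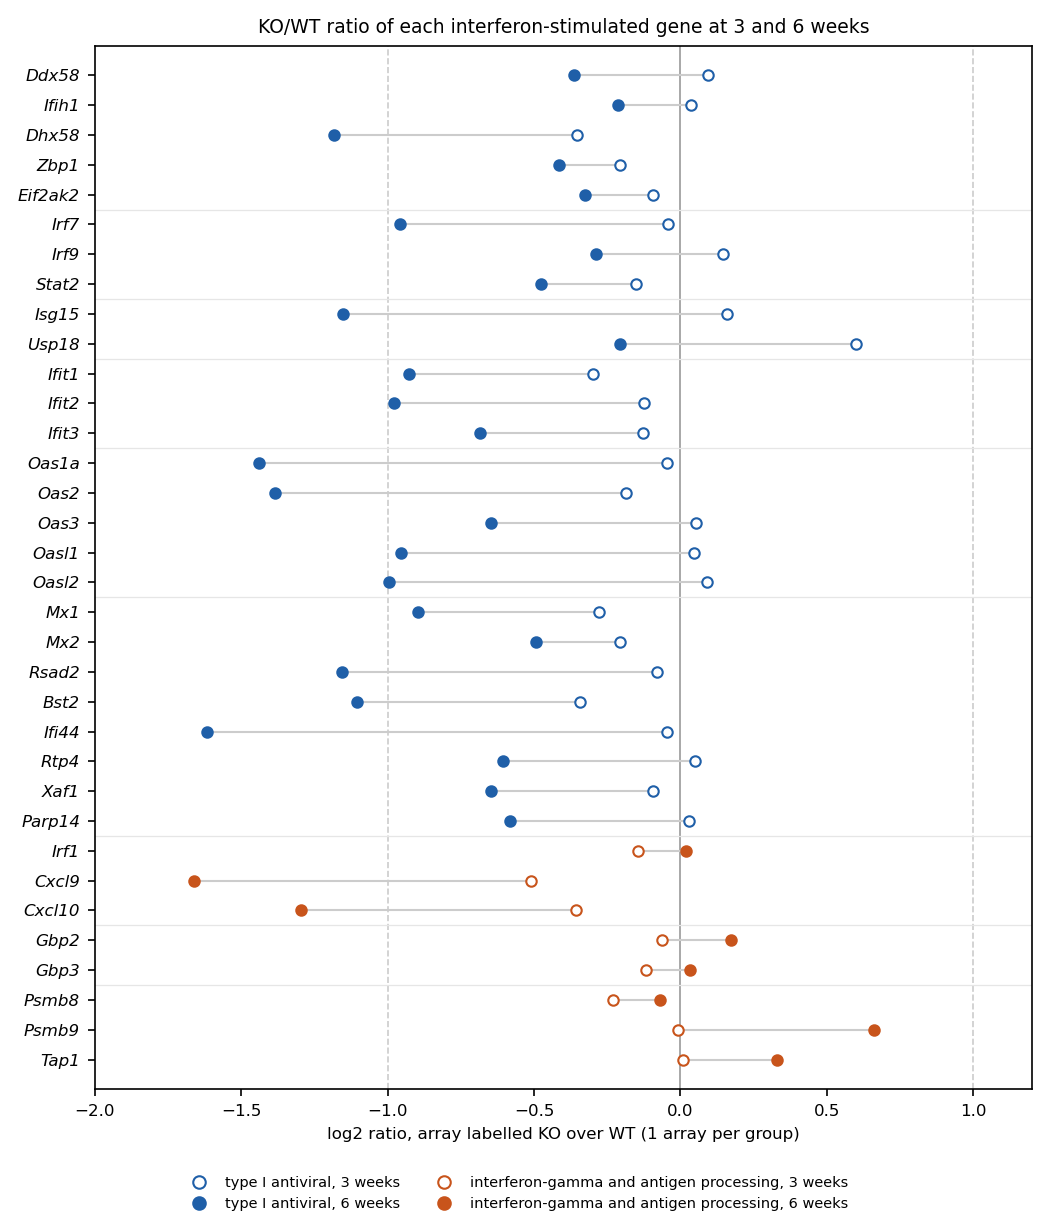
Log2 ratio of the signal in the array labelled KO over that in WT (x axis) for each of the 34 measured members (y axis, grouped by role), at 3 weeks (open) and 6 weeks (filled), with 1 array per group and dashed lines at 2-fold. The filled blue points of the 26 type I antiviral genes all lie left of 0, from -1.61 to -0.21, while 5 of the 8 orange points at 6 weeks lie right of it.

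Among the sensors of viral nucleic acid, Dhx58, which encodes LGP2, stood apart. Its signal was 0.370 in WT and 0.289 in KO at 3 weeks and 0.605 and 0.266 at 6 weeks, so WT at 6 weeks was the high array, and the log2 ratio at 6 weeks was -1.18. Ddx58, which encodes the RNA helicase RIG-I, had 3.11 and 3.32 at 3 weeks and 4.02 and 3.12 at 6 weeks, which gives a log2 ratio of -0.37. The other sensors differed by similar amounts: Ifih1, which encodes MDA5, had -0.21, the kinase PKR gene Eif2ak2 had -0.33 and Zbp1, which binds Z-form nucleic acid, had -0.42. At 3 weeks the 5 sensors lay between -0.35 and 0.09.

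Of the transcription factors, Irf7, the factor that amplifies interferon-alpha production, showed the largest difference. Its signal was 0.805 and 0.782 in WT and KO at 3 weeks, then 1.42 and 0.732 at 6 weeks, so WT at 6 weeks alone was high. The log2 ratio was -0.04 at 3 weeks and -0.96 at 6 weeks. Stat2 and Irf9, parts of the complex that binds the ISRE, had smaller ratios at 6 weeks, -0.48 and -0.29. Irf9 had 3.20 and 3.54 at 3 weeks and 5.12 and 4.19 at 6 weeks, higher on both arrays of 6 weeks than on both of 3 weeks.

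Isg15, a ubiquitin-like protein that is joined to other proteins after interferon, had a signal of 4.81 and 5.38 in WT and KO at 3 weeks, then 6.39 and 2.87 at 6 weeks. KO at 6 weeks was the lowest of the 4 arrays, with a log2 ratio of -1.15, and the second Isg15 probe gave -1.23. Usp18, the protease that removes ISG15 and restrains the type I receptor, went another way. It had 2.29 in WT and 3.47 in KO at 3 weeks and 3.40 and 2.94 at 6 weeks, so WT at 3 weeks was the low array, with log2 ratios of 0.60 and -0.21.

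The Ifit genes, a family of antiviral genes, were lower together at 6 weeks, with log2 ratios of -0.93 for Ifit1, -0.98 for Ifit2 and -0.69 for Ifit3. Ifit1 had a signal of 0.336 and 0.273 in WT and KO at 3 weeks, then 0.485 and 0.255 at 6 weeks. Ifit3 had 1.69 and 1.55 at 3 weeks and 2.28 and 1.42 at 6 weeks. In both genes WT at 6 weeks was the high array and KO at 6 weeks the low one. Ifit2 had 0.207 and 0.190 at 3 weeks and 0.229 and 0.117 at 6 weeks, where KO at 6 weeks was the array that differed from the other 3.

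The oligoadenylate synthetases make the second messenger that activates RNase L. Oas1a had a signal of 3.62 in WT and 3.51 in KO at 3 weeks and of 4.83 and 1.78 at 6 weeks, a log2 ratio of -0.04 and then -1.44. Its second probe gave -1.49 at 6 weeks. Oas2 had 1.48 and 1.30 at 3 weeks and 1.76 and 0.675 at 6 weeks, which gives a log2 ratio of -1.39. In both genes KO at 6 weeks lay below every other array. Oasl1 and Oasl2, the synthetase-like genes, had -0.956 and -0.996, and Oas3, a dim gene with a signal of at most 0.0739 on any array, had -0.65. The 5 measured genes of this family had a median of -0.996 at 6 weeks and of 0.05 at 3 weeks.

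The other antiviral effectors held the largest difference of the type I class. Ifi44, an interferon-induced GTP-binding protein, had a signal of 0.658 in WT and 0.637 in KO at 3 weeks and of 0.996 and 0.325 at 6 weeks, which is 3.06-fold lower in KO and a log2 ratio of -1.61. Only 1.85% of all genes tested had a lower ratio at 6 weeks. Bst2, which encodes tetherin, a protein that holds budding virus at the cell surface, had 27.7 and 21.9 at 3 weeks and 36.9 and 17.2 at 6 weeks, 2.15-fold lower in KO at that age. Rsad2, which encodes viperin, had 0.824 and 0.779 at 3 weeks and 0.620 and 0.278 at 6 weeks. It was the type I gene with the lowest WT ratio of 6 over 3 weeks, -0.41, so both arrays of 6 weeks lay below those of 3 weeks, and its KO/WT log2 ratio at 6 weeks was -1.15. Mx1, a dynamin-like GTPase for which many laboratory mouse strains carry a defective allele, had -0.89 at 6 weeks and Mx2 had -0.49. Rtp4, Xaf1, a cofactor of apoptosis, and Parp14, an ADP-ribosyltransferase, lay at -0.61, -0.65 and -0.58.

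The interferon-gamma and antigen-processing class divided. Its median log2 ratio was -0.13 at 3 weeks and 0.03 at 6 weeks over 8 genes, beside -0.79 in the type I class at 6 weeks. Cxcl9, a chemokine for T cells that is induced by interferon-gamma, had a signal of 1.64 and 1.15 in WT and KO at 3 weeks, then 1.92 and 0.606 at 6 weeks. It was 3.16-fold lower in KO at 6 weeks, a log2 ratio of -1.66, and its second probe gave -1.55. Cxcl10, which acts on the same receptor, had 1.66 and 1.30 at 3 weeks and 1.56 and 0.636 at 6 weeks, a log2 ratio of -1.30. Both chemokines were also the lowest members of this class at 3 weeks, with -0.51 and -0.36.

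The other 6 genes of the class lay between -0.07 and 0.66 at 6 weeks, with a median of 0.10, a split made after their values were seen. Irf1, the transcription factor most closely tied to interferon-gamma, had a signal of 4.90 and 4.44 at 3 weeks and of 6.03 and 6.11 at 6 weeks, so WT and KO were even at 6 weeks, with a log2 ratio of 0.02 after -0.14 at 3 weeks, and both arrays of 6 weeks were higher than those of 3 weeks. Gbp2 and Gbp3, guanylate-binding proteins that attack vacuoles holding pathogens, had log2 ratios of 0.17 and 0.03 at 6 weeks. Gbp3 had 1.44 and 1.33 at 3 weeks and 2.43 and 2.48 at 6 weeks, again high on both arrays of 6 weeks.

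Psmb8 and Psmb9 encode subunits of the immunoproteasome, which cuts peptides for MHC class I. Psmb8 had 3.55 and 3.03 in WT and KO at 3 weeks, then 3.63 and 3.46 at 6 weeks, so KO at 3 weeks was its low array, with log2 ratios of -0.23 and -0.07. Psmb9 had 2.64 and 2.63 at 3 weeks and 2.85 and 4.50 at 6 weeks, so KO at 6 weeks was the high array, and its log2 ratio of 0.66 was the highest of any member. Tap1, which carries peptides into the endoplasmic reticulum and shares its promoter region with Psmb9, was read by 10 spots per array. Its spots ran from 0.260 to 0.297 in WT and from 0.253 to 0.325 in KO at 3 weeks, which overlap, and from 0.308 to 0.355 and from 0.357 to 0.440 at 6 weeks, which do not. Its mean signal was 0.329 in WT and 0.413 in KO at 6 weeks, a log2 ratio of 0.33 with an SD between spots of 0.104 (10 spots per array), which covers the spots of these arrays and not the spread between animals.

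**Figure D2:**
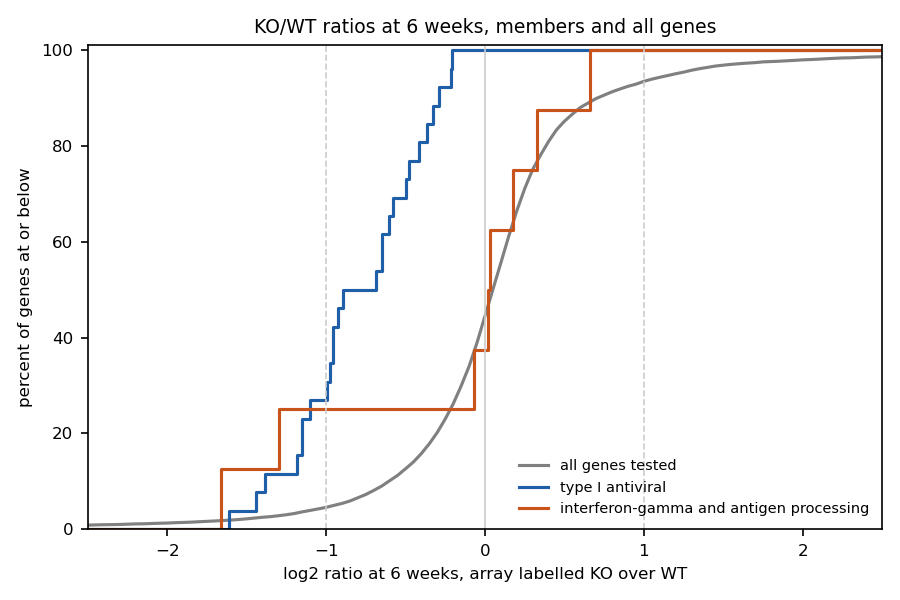
Percent of genes (y axis) at or below each log2 ratio of KO over WT at 6 weeks (x axis), for all 21412 genes tested, the 26 type I antiviral genes and the 8 interferon-gamma and antigen-processing genes. The type I curve reaches 100 percent at -0.21, left of 0, while the other class follows the curve of all genes apart from Cxcl9 and Cxcl10.

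Followed by age, the classes took different courses. In WT, 24 of 26 type I genes had a higher signal at 6 than at 3 weeks, with a median log2 ratio of 0.41. In KO 20 of 26 had a lower one, with a median of -0.20. Of all genes tested, 10750 of 21194 were higher with age in WT and 43.9% were lower in KO. The medians over all genes tested were 0.01 in WT and 0.05 in KO. None of the members was at least 2-fold higher at 6 weeks in WT, where 3.65% of all genes were and 2.22% of those well above background throughout, and none was lower, where 5.85% and 3.23% were. By the 1.5-fold threshold 8 were higher in WT, where 8.2% of all genes were, and none lower, where 10.8% were. In KO 2 members, Rsad2 at -1.48 and Cxcl10 at -1.03, were at least 2-fold lower, where 6.26% of all genes were and 4.49% of those well above background throughout, shares near that of the members. None was at least 2-fold higher in KO, where 6.55% and 3.84% were. By the 1.5-fold threshold 10 were lower in KO, where 13% of all genes were, and 2 higher, where 13.4% were. WT at 6 weeks was the highest of the 4 arrays for 23 of the 26 type I genes, against 22.3% of genes above that limit throughout, and KO at 6 weeks was the lowest for 17, against 27.2%. A signal that was higher with age in WT and lower in KO was found for 18 of the 26, against 14% of those genes. The KO/WT ratio at 6 weeks therefore holds both a higher WT array and a lower KO array. It shares these arrays with the age ratios, which are not independent of it.

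In the other class 7 of 8 genes were higher at 6 weeks in WT, with a median of 0.16, and 6 of 8 in KO, with a median of 0.39. Of all genes tested, 10750 of 21194 were higher in WT and 12031 of 21998 in KO. In WT, Psmb8 at 0.03, Gbp2 at 0.08 and Cxcl10 at -0.09 lay within the median SD between spots for that ratio, 0.0985. Gbp3 had log2 ratios of 0.75 in WT and 0.90 in KO, Psmb9 of 0.11 and 0.78, Tap1 of 0.25 and 0.57 and Irf1 of 0.30 and 0.46. Cxcl9 was higher with age in WT and lower in KO, with 0.22 and -0.93.

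**Figure D3:**
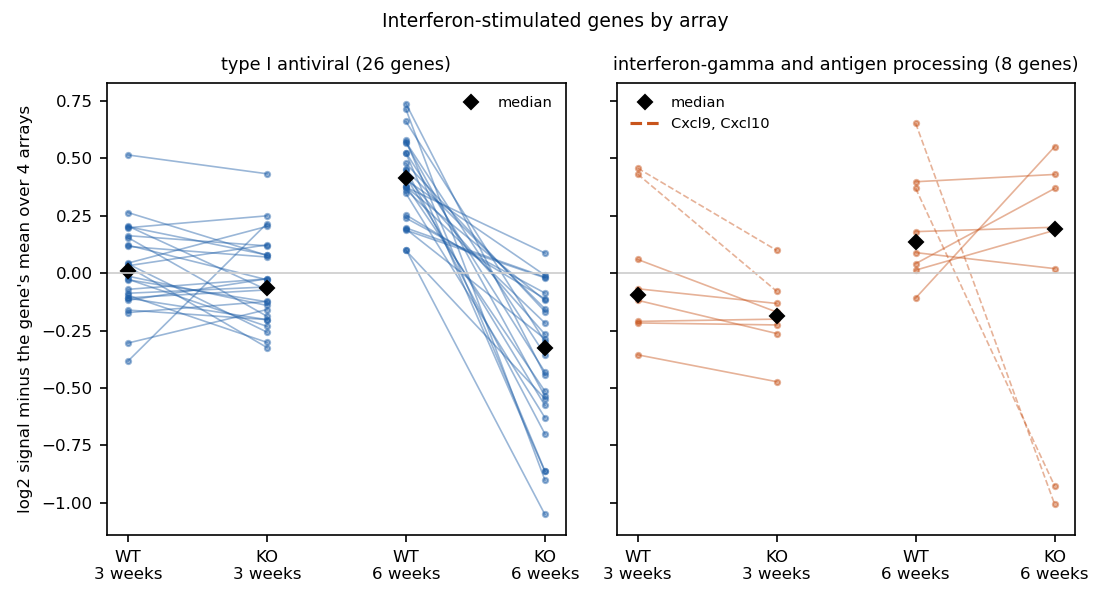
Log2 signal of each member minus its own mean over the 4 arrays (y axis) on each array (x axis), for 26 type I antiviral genes (left) and 8 interferon-gamma and antigen-processing genes (right). Lines join WT and KO of one age, and diamonds are medians. On the left most genes are highest in WT at 6 weeks and lowest in KO at 6 weeks, and on the right only Cxcl9 and Cxcl10 (dashed) have that steep drop.

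The difference between the KO/WT log2 ratios of 6 and 3 weeks was below 0 for all 26 type I genes, with a median of -0.68. Among genes well above background on every array it was below 0 for 43%, with a median of 0.06. It was at least 2-fold lower for 8 members, where 3.46% of the genes above that limit throughout were, and at least 2-fold higher for none, where 4.07% were. By the 1.5-fold threshold it was lower for 19, where 9.46% of these genes were, and higher for 1, where 10.6% were. The 8 were Ifi44, at -1.57, Oas1a, Isg15, Oas2, Oasl2, Rsad2, Oasl1 and, of the other class, Cxcl9, at -1.15. This difference uses all 4 arrays and leaves no degree of freedom for a test. limma was fitted to 20891 genes over the 4 arrays with a term for each of age and genotype. That leaves 1 residual degree of freedom. The test takes its spread from that same difference, drawn toward a prior variance estimated over all genes fitted. It called no member for genotype after Benjamini-Hochberg adjustment, where 0% of all genes were called in either direction, with a smallest adjusted p of 0.918 among members and none of the 34 at an unadjusted p under 0.05, where 5% of all genes were. For Ifi44 the genotype effect over both ages was -0.83 with a standard error of 0.48 and an adjusted p of 0.918. For age it also called no member, where 0% of all genes were called, and 1 of the 34, Gbp3, had an unadjusted p under 0.05, where 12.7% of all genes had, a larger share. Gbp3 had, by limma, an age effect of 0.83, a standard error of 0.15 and an adjusted p of 0.299.

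The genes around these members in the pathway were read by lists written with results on some members known. Of 49 further interferon-stimulated genes, 48 were tested at 6 weeks, with a median log2 ratio of -0.24, against -0.02 at 3 weeks. At 6 weeks 4 were at least 2-fold lower in KO, where 4.54% of all genes tested were, and 1 higher, where 6.49% were. These shares of all genes also apply to the lists below at 6 weeks, and 44.3% of all genes tested were below 0. Cmpk2, a nucleotide kinase that neighbours Rsad2, had a signal of 0.306 and 0.232 in WT and KO at 3 weeks, then 0.410 and 0.133 at 6 weeks, a log2 ratio of -1.62. Ifi27l2a had -1.51 at 6 weeks, while Tgtp1, a GTPase induced by interferon-gamma, was dim and had 1.39.

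The interferons, their receptors and the sensing genes that are no members had medians near 0 at 6 weeks, with single genes on both sides. Of 11 interferon genes tested at 6 weeks none was at least 2-fold higher or lower, and Ifnb1, Ifna4 and Ifne were not well above background on any array. Ifng, dim on all arrays, had a signal of 0.0295 and 0.0353 in WT and KO at 3 weeks, then 0.0395 and 0.0237 at 6 weeks, a log2 ratio of -0.74. Of 13 receptor and JAK-STAT genes, none was at least 2-fold lower at 6 weeks and 1 was higher, with a median of -0.07. The type I receptor chains Ifnar1 and Ifnar2 had 0.54 and 0.01, the interferon-gamma receptor chains Ifngr1 and Ifngr2 had -0.18 and -0.13, and Stat3 had 0.38. Ifnlr1, the receptor chain for interferon-lambda, was the gene that was higher, at 1.73 on a signal of 0.0206 in WT and 0.0686 in KO. Of 15 genes of sensing upstream of interferon, 1 was at least 2-fold higher, Trim25 at 1.23, and none lower, with a median of -0.01 and 8 of the 15 below 0. Traf3, an adaptor of this pathway, had -0.87 and Sting1, the adaptor of the DNA sensor cGAS, -0.56.

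Of 13 further genes of MHC class I presentation none was at least 2-fold higher or lower in KO at 6 weeks, with a median of 0.10 and a range from -0.25 to 0.61. Nlrc5, the transactivator of MHC class I genes, had the highest of these ratios, on a signal of 0.964 and 1.02 in WT and KO at 3 weeks, then 1.62 and 2.48 at 6 weeks. The classical heavy chains H2-K1 and H2-D1 had 0.04 and 0.10. Of 7 MHC class II genes none passed 2-fold at 6 weeks, with a median of -0.15.

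Markers of Kupffer cells and macrophages, like the type I genes, were mostly lower in KO at 6 weeks. Of 14, 4 were at least 2-fold lower in KO, where 4.54% of all genes tested were, and none higher, where 6.49% were. The median log2 ratio of the 14 was -0.82, after -0.07 at 3 weeks. The 1 marker above 0 at 6 weeks was Cd163, a dim gene, at 0.42. With age in WT, 9 of the 14 markers had a lower signal, where 48.4% of all genes tested had. Their median of -0.05 lay within the median SD between spots for that ratio, 0.0985. Their summed signal was 99.1 and 88.6 in WT at 3 and 6 weeks and 91.2 and 49.6 in KO, and all 14 were well above background on every array. Adgre1, which encodes the macrophage antigen F4/80, had -1.54, Folr2 -1.32 and Lyz2, lysozyme, -1.17. Sinusoidal endothelial markers had a median of -0.42 at 6 weeks, with 1 of 9 at least 2-fold lower. Stellate cell markers had a median of -0.38, with 7 of 9 below 0, none at least 2-fold lower and 1 higher. That 1 was Des, at 1.99 at 3 weeks and 2.35 at 6 weeks, higher in KO at both ages as the muscle markers were. T and NK cell markers, from the cells that make interferon-gamma, had a median of -0.02, with 1 of 11 higher and none lower, and Cd8a and Ncr1 were not well above background on any array. Markers of plasmacytoid dendritic cells, the main makers of interferon-alpha, had a median of -0.32, with 2 of 6 lower. These were Ly6d, at -1.82 after 0.27 at 3 weeks, and Klk1, at -1.02 after -0.78. Siglech had 0.13 and Tcf4 -0.11. The Siglech signal at 6 weeks, 55.1 in WT and 60.1 in KO, was above that of every Kupffer cell and macrophage marker. Whether it comes from plasmacytoid dendritic cells was not tested. B cell markers had a median of -0.35, with 1 of 6 lower. This was Pax5, whose -4.56 is a bound, since KO at 6 weeks was not well above background. At 3 weeks Pax5 had 4.01, a bound with WT not well above background. Neutrophil and monocyte markers had a median of 0.07, with 1 of 9 lower, Ccr2, also a bound, and 1 higher. In pooled whole liver, fewer cells of a type and less RNA per cell cannot be told apart. The part of these cell types in the member ratios was not tested.

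**Figure D4:**
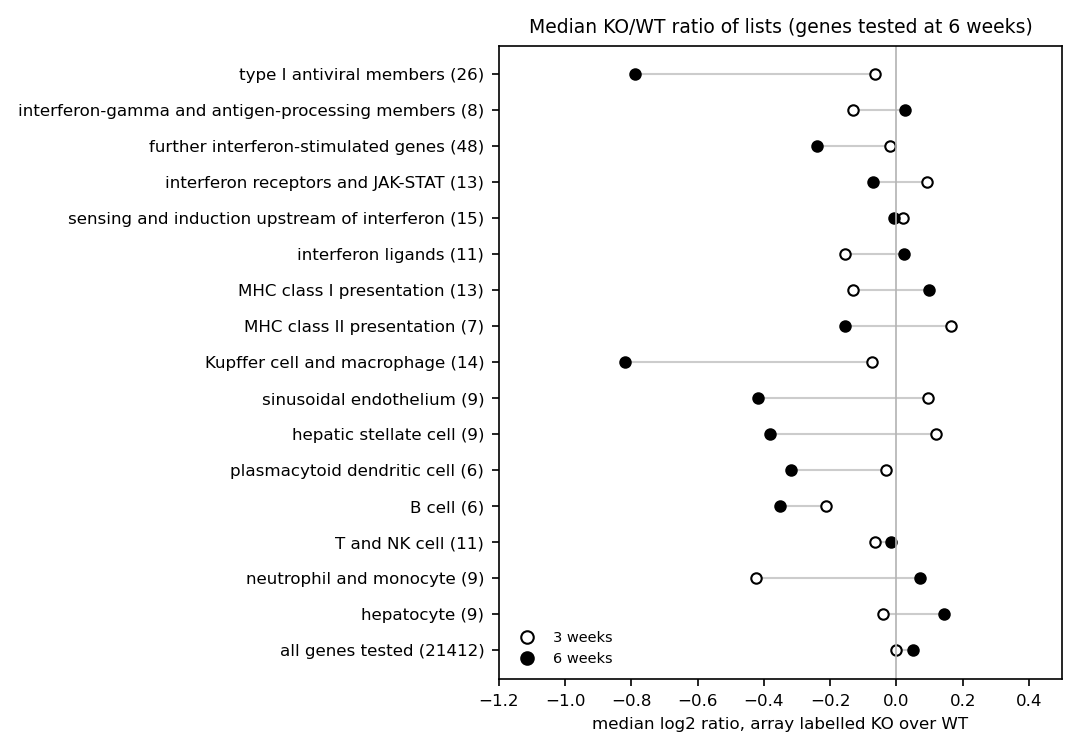
Median log2 ratio of KO over WT (x axis) of each list (y axis, with the number of genes tested at 6 weeks) at 3 weeks (open) and 6 weeks (filled), with 1 array per group. At 6 weeks the type I antiviral members, at -0.79, and the Kupffer cell and macrophage markers, at -0.82, lie lowest, and the muscle markers, at 5.17, are off this scale and not drawn.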

How the data were processed

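For each of the 4 groups, RNA pooled from 5 livers was labelled with Cy3 and read on its own one-colour Agilent array. Scanner intensity was extracted by the authors with Agilent Feature Extraction 11.5.1.1 (submitters' processing notes), and is background-subtracted and spatially detrended but not scaled between arrays, per the file headers. The deposited files also flag each spot, with other values of 0 or 1, as outlier, saturated or well above background. In the authors' table the same intensity stands over its array's 75th percentile, with ratios to that quotient between 0.9998 and 1.000 on every array, and column medians from 0.0853 to 0.0896.

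Here the log2 of that intensity was taken, less the log2 of its 75th percentile among the 43020 spots that are no controls. No spot was saturated, and 189 to 252 outlier spots per array were left out. Spots well above background numbered 28714 to 30697. Spots of a probe were averaged and the brightest probe stood for a gene, named as in the files. Of 46 member probes, 42 had an accession in the RefSeq table, and all 42 carried the member's name there. Comparisons took in each gene that passed the background flag on 1 or both arrays, as a bound where it passed on 1. Genes were counted at 2-fold. Probe positions in the files are those of mm9 and are not printed. limma 3.58.1 in R 4.3.3 fitted all 4 arrays. The remaining work was done with numpy 2.4.6, pandas 2.3.3 and matplotlib 3.10.9 under Python 3.11.15, and was tested on simulated data. The members, classes and lists were chosen with earlier results of these data known. All members are named. Genes of other lists could be named, and not all such genes are, where one is a receptor, Stat3, Nlrc5 or an H2 gene, or among the 3 largest changes at 6 weeks on its list, and any other was chosen after its values were seen. Precision is limited by having so few arrays.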

Additional observations from a re-analysis of the deposited data

How the results depend on the processing

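Results were recomputed from normexp-corrected intensities (offset 50) brought to equal quantiles, with quantiles alone, with medians in place of the 75th percentile, with the filter dropped or asked of every array, with all probes of a gene averaged, with outlier spots, from the authors' table, with a 1.5-fold threshold, Cxcl10 moved to the type I class, limma with a trend or with 1 term, and, chosen after seeing the data, the class without Cxcl9 and Cxcl10. The type I median at 6 weeks ran from -0.91 to -0.68 over these, and no type I gene changed sign at 6 weeks under any. The median of the other class at 6 weeks ran from -0.01 to 0.10. Over all genes at 6 weeks, 1390 were at least 2-fold higher and 973 lower, against 549 and 500 with normexp and quantiles, 699 and 575 with the filter on every array and 2199 and 1645 without a filter. Of 1088 values of single members under an alternative, 29 moved by more than the spread between spots and no called value changed sign. With normexp and quantile normalization the difference between ages was at least 2-fold lower for 5 members, a count without a share of all genes for that setting. With median scaling 1 member, in place of 2, was at least 2-fold lower at 6 than at 3 weeks in KO, where 1269 of 21998 genes were. With the mean of all probes 1 member was higher in KO at 3 weeks, where 608 of 21811 genes were. Under the same setting 1 was higher with age in WT, where 729 of 21219 genes were, and 4 lower with age in KO, where 1313 of 22020 were. Xaf1, whose second probe is described below, stands at 2.40 at 3 weeks and -3.46 at 6 weeks there. At 1.5-fold, 1 member was higher at 3 weeks, 1 higher and 19 lower at 6 weeks, 8 higher with age in WT, 2 higher and 10 lower with age in KO, and 1 higher and 19 lower in the difference between ages. Letting limma's prior variance follow mean signal gave 4 genes higher for genotype, none of them a member. In that fit 4 of the 34 members had an unadjusted p under 0.05 for genotype, where 5.91% of all genes had. Without the age term 2 members had one, where 3.15% of all genes had. The smallest adjusted p among members in these limma fits was 0.788 and 0.999. For age 5 members had an unadjusted p under 0.05 with the trend, where 15.7% of all genes had. No replicate could be left out and no paired analysis was possible because each group has 1 array.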

Other observations

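MHC class II genes, which present antigen taken up from outside the cell, were the part of the pathway with the largest age difference in both genotypes. At 6 over 3 weeks 4 of 7 were at least 2-fold higher in WT, where 3.65% of all genes tested were, and 2 of 7 in KO, where 6.55% were. The median log2 ratios of the 7 were 1.09 in WT and 0.86 in KO. H2-Ab1 had a signal of 3.43 and 3.95 in WT and KO at 3 weeks, then 8.44 and 8.79 at 6 weeks, high on both arrays of 6 weeks. Cd74, the chaperone of class II molecules, had 1.55 and 1.84 and then 3.76 and 3.34. These values stand beside type I antiviral genes that were higher with age in WT and mostly lower in KO.

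Of the 11 additional probes of the members, 6 were well above background on all 4 arrays, and each had the sign of the brighter probe at 6 weeks, with a gap of at most 0.22 on the log2 scale. A second Xaf1 probe, well above background on 2 arrays, read 0.427 in KO at 3 weeks and 0.561 in WT at 6 weeks and was not well above background on the other 2. The brighter Xaf1 probe, used above, read between 0.756 and 1.21 on all 4. Ly6e and Tor3a, interferon-stimulated genes named after their values were seen, had -1.11 and -1.25 at 6 weeks and -0.24 and 0.05 at 3 weeks.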
